A study of Mus musculus with 54 samples.

Results

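Principal cells of the kidney collecting duct were taken here as the 10x barcodes that held at least 2 UMIs (unique molecular identifiers, counted once per captured transcript) of Aqp2, at least 1 UMI over Fxyd4 and Aqp3 together, and no UMI of Calb1, Slc12a3 or Slc12a1. The rule selected 2834 of the 175959 barcodes in 39 libraries (1.61%). They were 1130 of the 77656 cells in 27 libraries and 1704 of the 98303 nuclei in 12 libraries. Aqp2 and Aqp3 encode the apical and basolateral water channels of these cells, and Fxyd4 encodes a regulatory partner of the sodium pump. Calb1 and Slc12a3 mark the distal convoluted and connecting tubule, and Slc12a1 marks the thick ascending limb. Because the rule read these 6 genes, their levels in the selected barcodes and the differences in level between those barcodes and the rest are given as descriptions, with no test. An exception is whether the change on methanol fixation differed between them, which was tested but is not independent of the rule.

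Principal cells are the epithelial cells in which the kidney sets the final amount of water and sodium in the urine. Vasopressin acts on the receptor encoded by Avpr2, raises cAMP and moves Aqp2 protein to the luminal membrane, and water leaves the cell through Aqp3 and Aqp4. Aldosterone acts on the mineralocorticoid receptor encoded by Nr3c2, which the enzyme encoded by Hsd11b2 shields from cortisol-like hormones, and sodium enters through the epithelial channel built from Scnn1a, Scnn1b and Scnn1g.

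The study asked how the way a kidney is taken apart and stored shapes the profiles of its cells, with whole kidneys from 3 adult mice per condition. Kidneys of male C57BL/6J mice of 19 weeks, from 1 litter and carrying the AFAPIL.1DEL genotype, were dissociated warm, with a commercial enzyme mix, or cold, with a cold-active protease. Each C57BL/6J suspension was profiled fresh, after cryopreservation for 6 weeks and after methanol fixation for 3 months (10x v2 chemistry). Male Balb/c mice of 18 weeks gave cold fresh cells and nuclei washed 3 times at 500 g (v2), and female Balb/c former breeders of 15 weeks gave cold fresh cells, cells cryopreserved for 2 weeks, and nuclei from 3 protocols (v3), namely 3 washes at 500 g, 1 wash at 2000 g and a sucrose gradient. The sucrose nuclei were not sorted, whereas the other nuclei were sorted on a DNA dye. The C57BL/6J and male Balb/c batches differ in strain, genotype and age, and the male and female Balb/c batches in sex, age and chemistry, so within each of these pairs the parts cannot be told apart. Bulk RNA-seq was made from C57BL/6J warm and cold suspensions, from intact male and female Balb/c kidneys and from female Balb/c cold suspensions, with 3 libraries each.

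The 10x libraries held 983522 to 35170947 UMIs in total, and the bulk libraries held 2326998 to 31093949 assigned reads. The median UMI count per selected barcode ranged from 386 to 4663 among the cell libraries and from 602 to 3160 among the nuclei libraries. These counts are not on 1 basis, because the tables of the nuclei and of the male Balb/c cells list 0 mitochondrial genes and those of the other cells list 13, whose median share per selected barcode was 14.3% to 34.9%, depending on the library. In 7 cell libraries fewer than 10 barcodes were selected, and these libraries were left out of the tests on gene levels. Across the libraries 2823 barcode sequences were distinct, 3 were selected in more than 1 library, and 1 of these was selected in 9 libraries and listed in 13. Where this sequence came from was not tested.

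Aqp2 lies on chromosome 15 of the mouse genome and starts transcription on the plus strand. The 250 bases before that start (RefSeq, GRCm38.p6, chr15:99578806-99579055) are shown because the selection rests on this gene before any other.

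Aqp2 promoter: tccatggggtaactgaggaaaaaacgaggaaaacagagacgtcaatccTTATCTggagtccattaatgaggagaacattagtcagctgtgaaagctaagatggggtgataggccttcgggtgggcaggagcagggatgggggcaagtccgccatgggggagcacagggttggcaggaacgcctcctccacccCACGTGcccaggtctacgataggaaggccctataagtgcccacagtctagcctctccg

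Capitals mark a GATA motif (AGATAA, here read on the other strand) and an E-box (CACGTG). Searched on both strands, AGATAA was present in 9.99% of the 32817 mouse promoter windows of this length, CACGTG in 6.02%, and the cAMP response element TGACGTCA in 1.55%. The Aqp3 and Fxyd4 windows held none of the 3 motifs.

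The selected barcodes carried the known principal cell genes that the rule had not read. Hsd11b2 had a median level of 26.8 UMIs per 10000 non-mitochondrial UMIs across the 20 cell libraries with at least 10 selected barcodes, against 2.51 in the other barcodes of the same libraries. In the 12 nuclei libraries the corresponding levels were 5.51 and 0.522. Hsd11b2 was detected in a median of 80.6% of the selected cells and 5.67% of the other cells. It was higher in the selected barcodes of all these libraries.

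Avpr2, the vasopressin receptor gene, stood at 3.43 against 0.152 per 10000 in cells and at 1.50 against 0.0902 in nuclei. The sodium channel gene Scnn1b stood at 3.77 against 0.500 in cells and 5.32 against 0.563 in nuclei, and Scnn1g at 2.07 against 0.273 and 3.78 against 0.318. Gata3, a transcription factor of the collecting duct lineage, stood at 2.42 against 0.312 in cells and 3.15 against 0.312 in nuclei. These 4 genes were higher in the selected barcodes of every one of those libraries. The tight junction gene Cldn8 (8.63 against 1.01 in cells) and Apela, which encodes a small secreted peptide (12.6 against 0.601 in cells), followed the same pattern. Of 23 epithelial genes of the collecting duct, 18 were higher in the selected barcodes of all 20 cell libraries and 16 in those of all 12 nuclei libraries.

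Aqp4, which encodes the other basolateral water channel, was higher in the selected barcodes of 16 of 20 cell libraries and lower in none, with medians of 3.95 and 0.0442 per 10000. In the 4 remaining cell libraries it was at 0 in the selected barcodes. Genes of the proximal tubule, the most abundant epithelium of the kidney, were lower in the selected barcodes, 11 of 20 genes in every cell library and 18 of 20 in every nuclei library. By these markers, set against all other barcodes of a library, the label held in the libraries compared. That comparison does not tell principal cells from intercalated or connecting tubule cells, which are taken up below.

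The intercalated cells of the same duct were less clearly set apart. Of 16 intercalated cell genes, none was lower in the selected barcodes of every cell library and Spink8 was higher in every one. In nuclei 6 were lower and 3 higher in every library. At least 2 UMIs of this list were present in 19.6% to 84.6% of the selected cells and 3.06% to 41.2% of the selected nuclei, against 0 to 5.69% and 2.31% to 5.81% of barcodes with endothelial genes. Spink8 is counted in these shares and in those given below, so they partly count a gene that was itself higher in the selected cells. Thinned to 500 UMIs, the ranges were 0 to 69.2% against 0 to 20.0% in cells (0 to 4.50% without the male Balb/c library 3, which held 5 such endothelial barcodes) and 0 to 5.88% against 0.785% to 3.95% in nuclei. The warm cryopreserved C57BL/6J libraries gave 70.4% to 84.6% before thinning and 38.5% to 69.2% after it, so the label is less certain in them. The 3 warm fresh libraries held too few selected barcodes to be compared, and Hsd11b2 stood there at 33.6, 40.8 and 30.7 per 10000.

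The label did not hold in warm-dissociated methanol-fixed material. Its 3 libraries gave 2, 4 and 0 selected barcodes, and 5 of those 6 held more UMIs of proximal tubule genes than of all collecting duct lists together (proximal tubule-dominated barcodes). They held no UMI of Avpr2, Scnn1b, Scnn1g or Gata3. No gene levels are drawn from them below.

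At the edge of the rule, 587 of the selected barcodes (20.7%) held exactly 2 Aqp2 UMIs, 10.1% of the cells and 27.8% of the nuclei. A further 1284 barcodes held 1 Aqp2 UMI and met every other condition. Free RNA can place a UMI in a cell that does not express the gene. Among barcodes with at least 3 UMIs of endothelial genes, a cell type that should lack Aqp2, and outside the positive part of the rule, 0 to 11.6% held an Aqp2 UMI in the cell libraries and 9.17% to 29.1% in the nuclei libraries. At least 2 Aqp2 UMIs were found in 0 to 1.24% of such cells and in 0.417% to 4.38% of such nuclei. Endothelial barcodes with at least 2 Aqp2 UMIs and a UMI of Fxyd4 or Aqp3 had been left out beforehand, so these shares are lower limits. These ranges overlap, and the highest cell library was a cold methanol-fixed one.

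Of 6311 barcodes that met the positive part of the rule, 3477 (55.1%) were left out for a UMI of a negative gene, 2515 of them with Calb1. Cells and nuclei differed in this. Calb1 was present in 1689 of the 1768 cells left out and in 826 of the 1709 nuclei, and Slc12a1 in 130 and 896. The Calb1-positive barcodes shared many principal cell genes with the selected ones but carried them with others. Calb1 marks the connecting tubule, where Aqp2 is also made. S100g, which encodes the calcium-binding protein calbindin-D9k, was lower in the selected cells of all 20 libraries, at a median of 11.8 against 124 per 10000. Tmem52b was lower in all 20 cell libraries (1.83 against 9.77) and in all 11 nuclei libraries compared. Klk1, the tissue kallikrein gene of the connecting tubule, was lower in 19 of 20 (3.47 against 41.3).

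Scnn1b and the transcription factor gene Tfap2b were lower in the selected barcodes of all 20 cell and all 11 nuclei libraries. Slc8a1, a sodium-calcium exchanger gene, was lower in the selected nuclei of all 11 libraries (13.8 against 39.7). Other genes ran the opposite way. Aqp4 was higher in the selected barcodes of 16 of 20 cell libraries (3.95 against 0.841) and 11 of 11 nuclei libraries (3.35 against 1.20), and Ptger1, a prostaglandin E receptor gene, showed the same counts. Akr1b3, the aldose reductase gene of the response to high salt, was higher in all 20 cell libraries (4.14 against 0.712). Nfat5, which encodes the transcription factor of that response, was higher in the selected nuclei of 11 of 11 libraries.

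**Figure D1:**
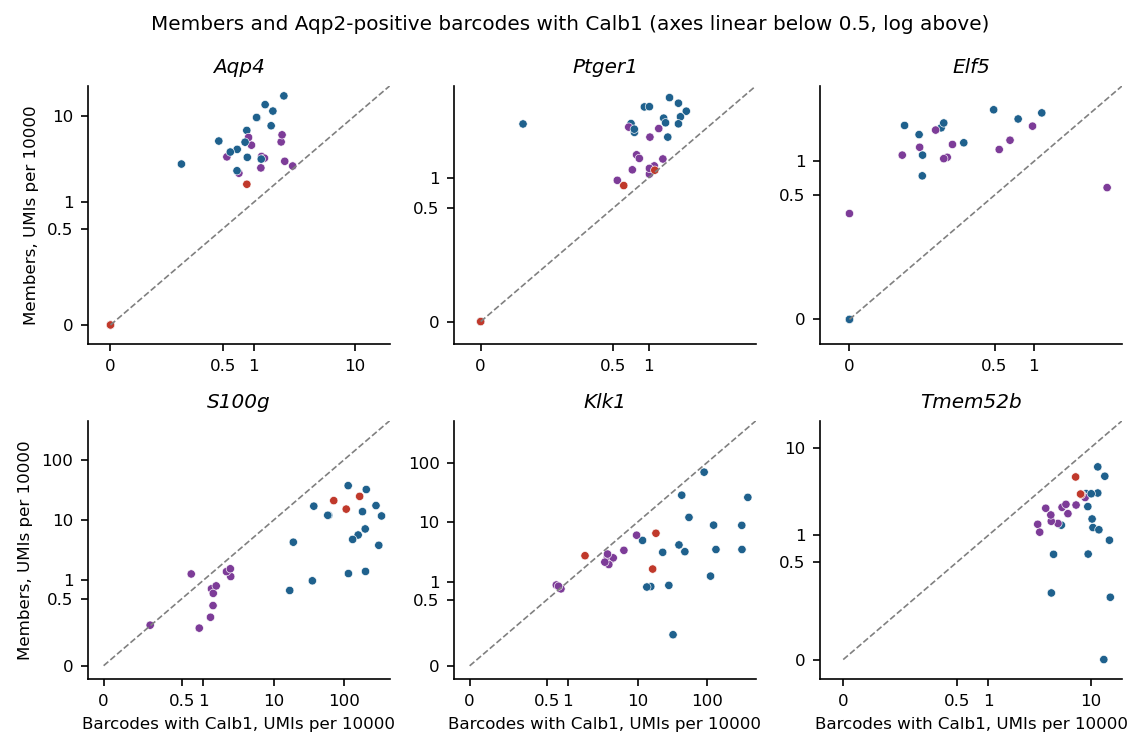
Level of 6 genes in the selected barcodes (vertical axis) against the level in Aqp2-positive barcodes that held Calb1 (horizontal axis), both in UMIs per 10000 non-mitochondrial UMIs on an axis that is linear below 0.5 and logarithmic above. Each point is 1 library (blue for cold cells, red for warm cells, purple for nuclei) and the dashed line marks equal levels. Points for Aqp4 and Ptger1 lie on or above the line, and points for S100g and Tmem52b in cells lie below it.

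The share of barcodes that were selected differed between workflows. In cold fresh C57BL/6J suspensions the shares were 0.424%, 0.906% and 0.573% (mean 0.634% ± 0.247, SD, n = 3), from 10, 37 and 31 barcodes. Warm fresh suspensions gave 0.0829%, 0.0837% and 0.139% (mean 0.102% ± 0.0323), from 2, 5 and 4 barcodes. Every warm library lay below every cold one. The exact two-sided permutation test gave p = 0.10 (adjusted p = 0.144 over 13 comparisons of shares), which is the smallest p that 3 libraries against 3 allow. Of the warm fresh barcodes that met the positive part of the rule, 84.0% to 91.8% held a negative gene, against 52.3% to 74.4% of the cold fresh ones. Without the negative genes, the shares were 0.865% warm and 1.82% cold, and the groups still did not overlap.

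Cryopreserved suspensions held larger shares of these cells than fresh ones, as fractions of all barcodes. The study reports that most proximal tubule cells were lost from cryopreserved suspensions, and shares among the remaining cell types were not compared here. Cold cryopreserved C57BL/6J libraries gave 1.00%, 2.15% and 1.31%, warm ones gave 8.69%, 1.30% and 2.20%, and female Balb/c ones gave 7.13%, 4.80% and 5.72%. The fresh female Balb/c libraries gave 2.13%, 1.35% and 1.11%. Stored and fresh libraries did not overlap in these 3 comparisons (exact permutation p = 0.10, adjusted p = 0.144 each), with differences of 0.853, 3.96 and 4.35 percentage points. Leaving out 1 library at a time gave 0.522 to 1.09 points for the cold C57BL/6J difference. When at least 3 Aqp2 UMIs were required, the cold C57BL/6J groups overlapped (exact permutation p = 0.20), with the lowest stored library at 0.892% and the highest fresh one at 0.906%. The warm cryopreserved library 1 stood apart from its group, with 109 selected barcodes whose median Aqp2 count was 4, and without it the warm difference was 1.65 points. Warm and cold cryopreserved shares overlapped (exact permutation p = 0.30, adjusted p = 0.390), and their difference of 2.57 points was 0.262 without that library.

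Methanol fixation left the cold share at 0.583%, 0.685% and 0.316%, overlapping the fresh share (exact permutation p = 0.70, adjusted p = 0.827). Shares are fractions of all barcodes that passed the authors' filters, so a larger share of 1 cell type can come from fewer barcodes of others.

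Nuclei held smaller shares than cells in males and overlapping shares in females. Male Balb/c nuclei gave 1.60%, 1.28% and 0.749% against 2.68%, 2.93% and 2.99% in male cells, without overlap (exact permutation p = 0.10, adjusted p = 0.144). Exactly 2 Aqp2 UMIs were held by 48.8% of the 293 selected male nuclei and 12.9% of the 264 selected male cells. A further 270 male nuclei and 44 male cells held 1 Aqp2 UMI and met every other condition. The study also required a minimum UMI count of nuclei only. The part of these differences in the shares was not tested. Female nuclei washed 3 times at 500 g gave 1.20%, 1.63% and 1.61%, within the range of the female cells (exact permutation p = 0.90). When every barcode was thinned to 500 UMIs, the female shares were 0.204% in nuclei and 2.16% in cells. At full depth without the negative genes they were 3.74% and 5.73%, and in neither case did the groups overlap. Thinning left out none of these nuclei and 1.32% to 3.91% of the female cells, which had fewer UMIs. The thinned shares cannot tell abundance from Aqp2 level, because the rule still required 2 Aqp2 UMIs. Before thinning, the median Aqp2 count per library was 3 to 4 in these selected nuclei and 15 to 26 in selected female cells. Nuclei washed once at 2000 g gave 2.15%, 1.91% and 2.53%, and sucrose nuclei gave 2.49%, 1.72% and 1.73%, both above every female nuclei library washed 3 times at 500 g (exact permutation p = 0.10 and adjusted p = 0.144 each). Thinned to 500 UMIs, with the same limit from the rule, the 2000 g libraries overlapped the 500 g libraries (exact permutation p = 0.20). Without the negative genes the sucrose libraries did so, at 4.04% against 3.74% (exact permutation p = 0.80). The background given above was the share of nuclei with endothelial genes, outside the positive part of the rule, that held at least 2 Aqp2 UMIs. It was 4.38%, 2.76% and 1.82% in the sucrose, 1.87%, 1.01% and 1.88% in the 2000 g and 1.75%, 1.23% and 1.82% in the 500 g libraries. As a lower limit it does not measure how often such nuclei met the rule itself, and its part in these shares was not tested. Cold fresh C57BL/6J shares lay below every male Balb/c share, and the means were 2.23 points apart.

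**Figure D2:**
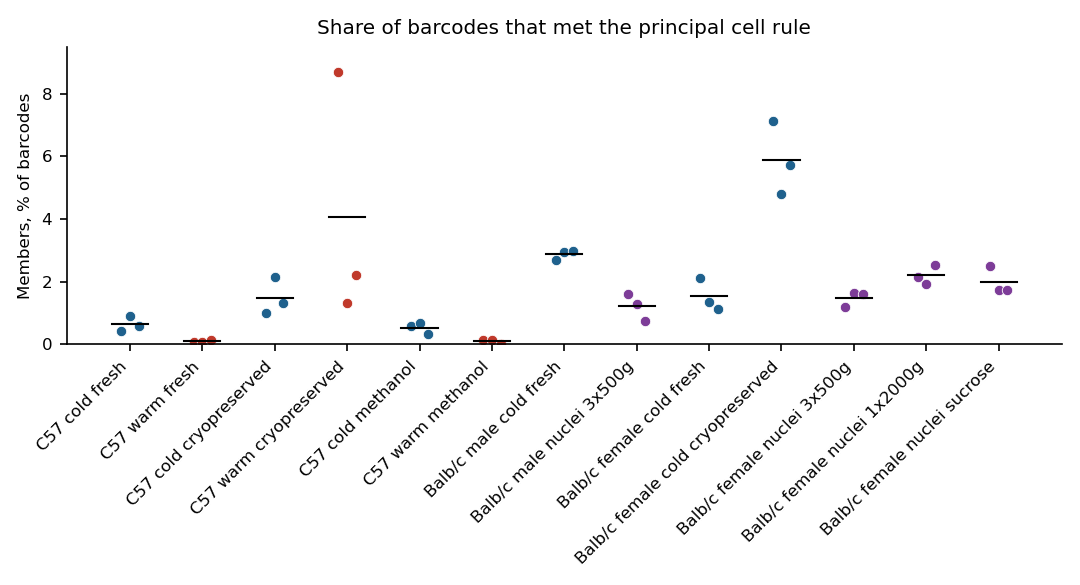
Selected barcodes as a percent of all barcodes in each of the 39 libraries, on a linear axis from 0, grouped by workflow. Points are libraries (blue for cold cells, red for warm cells, purple for nuclei) and bars are group means. Warm fresh libraries lie at 0.0829% to 0.139% and female cryopreserved libraries at 4.80% to 7.13%.

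Warm dissociation was compared with cold dissociation in cryopreserved C57BL/6J cells, the workflow in which enough selected barcodes were present on both sides. Most immediate-early and stress genes tested were higher after warm dissociation. Outside the rule genes, no gene tested on the water and vasopressin, sodium or potassium channel lists passed the threshold. Summed UMIs per library were fitted with edgeR's quasi-likelihood test, with Benjamini-Hochberg adjustment over all genes tested and a threshold of 0.05. Of 1067 genes tested in 3 warm and 2 cold libraries, 64 were higher (6.00%) and 2 lower (0.187%). DESeq2 called fewer, as given in the last section. The cold library 1 was left out because it held 9 selected barcodes.

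Fos, which encodes a transcription factor induced within minutes by many stimuli, stood at 53.9, 53.6 and 47.2 UMIs per 10000 in the warm cryopreserved libraries. In the cold cryopreserved ones it stood at 3.52, 1.79 and 1.13. No warm library overlapped a cold one, and the log2 fold change was 5.20 ± 0.32 (SE, edgeR adjusted p = 1.20e-07). Jun, its dimer partner, stood at 27.5, 27.0 and 26.5 in the warm libraries and 4.92, 1.14 and 0.377 in the cold ones (log2 fold change 5.07 ± 0.36, edgeR adjusted p = 3.58e-07). Egr1, a zinc finger gene of the same early response, stood at 12.3, 11.0 and 17.6 against 2.81, 0.163 and 0. The cold libraries fitted held 1 Egr1 UMI, and the ratio of the summed levels was 120 (exact 95% counting interval 21.4 to 4769). The 3 warm values lay close together for each gene.

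Of 17 stress genes, 15 rose and none fell, with a median log2 fold change of 3.81 against 0.01 for all genes tested. The study had picked these 17 genes because they rose in its warm libraries, so their direction is not independent evidence. Heat shock members included Hspa1a (14.1, 28.3 and 20.7 against 4.22, 2.93 and 2.64 per 10000) and Hspb1 (log2 fold change 2.84 ± 0.43). No alternative setting moved the count of 15 by more than 1.5 times. Of 28 further immediate-early and stress genes, 17 were tested and 13 rose. Some of the 13 passed the expression filter through the warm libraries, such as Socs3 and Rhob with 1 UMI each in the cold libraries fitted. The count therefore partly reflects which genes could be tested. Zfp36, which encodes an mRNA decay factor, was at 0 in the cold libraries fitted and at least 43.3-fold higher in the warm ones, and Nfkbiz was at least 7.55-fold higher.

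Among the genes of the collecting duct epithelium, 2 of 19 tested rose, with a list median of -0.09. They were the tight junction gene Cldn4 (7.81, 2.92 and 5.62 against 2.11, 0.814 and 0.377 per 10000, log2 fold change 3.27 ± 0.55) and the keratin gene Krt18 (1.49 ± 0.30). Elf3, an epithelial transcription factor gene, rose as the only 1 of 6 transcription factors tested (3.94, 2.27 and 4.73 against 0, 0.488 and 0 per 10000), with 3 UMIs in the cold libraries fitted. None of 14 genes tested for water and vasopressin (4), sodium (6), potassium channels (2) and prostaglandin or endothelin signalling (2) was called by edgeR. In these lists 1 gene had an unadjusted p under 0.05, and DESeq2 called none. The 4 water and vasopressin genes were Avpr2, Gnas, Mal and Prkar1a, which are not water channels, and Aqp4 was not among the genes edgeR tested. Of the rule genes, Fxyd4 stood at 50.7, 71.2 and 51.9 in the warm libraries and 71.1, 133 and 124 in the cold ones.

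Markers of other cell types moved with this comparison. The summed level of 16 intercalated cell genes was 34.0 to 58.6 per 10000 in the warm cryopreserved libraries and 16.1 to 39.2 in the cold ones. At least 2 intercalated UMIs were present in 38.5% to 69.2% of warm and 5.71% to 7.69% of cold selected barcodes after thinning to 500 UMIs, and in 70.4% to 84.6% and 46.2% to 54.3% before it. The endothelial gene Plvap also rose, from 1 UMI in the cold libraries fitted to 60 in the warm ones. Their part in the result was not tested. Without the warm library 1 the fit called 67 genes.

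Fresh warm libraries held 2 to 5 selected barcodes each, too few for a fit. The same question was therefore put to the wider set of Aqp2-positive barcodes, selected without the 3 negative genes, a choice made after the data were seen. This set holds connecting tubule cells too, since 89.3% of its warm fresh and 61.9% of its cold fresh barcodes held Calb1. Of 2201 genes tested, 59 were higher (2.68%) and 21 lower (0.954%) in the warm fresh libraries.

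Fos stood at 3509, 2702 and 3253 CPM (the libraries' counts scaled to a common library size) in the warm fresh libraries and at 0 in all 3 cold fresh ones, at least 483-fold higher. Jun stood at 1415, 1104 and 1949 against 13.4, 13.2 and 23.4 CPM (log2 fold change 6.45 ± 0.34, edgeR adjusted p = 1.78e-10). Of the 17 stress genes, 12 of 15 tested rose, with a median of 3.68 against 0.01 for all genes, and 11 of 14 other early genes rose. The study had picked the 17 genes as induced in its warm samples, so their count is not independent evidence. Some of the 11 passed the expression filter through the warm libraries, such as Nr4a1 and Nfkbiz at 1.47 and 2.94 CPM in the cold ones. That count therefore partly reflects which genes could be tested. Elf3 (2.34 ± 0.40) and Cldn4 (1.44 ± 0.25) rose as they did in the cryopreserved cells, although the libraries differ.

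Some collecting duct genes moved too. Aqp4 stood at 301, 181 and 273 CPM in the cold fresh libraries and at 0 in every warm fresh library, at least 33.2-fold lower. Ptger1 stood at 201, 194 and 172 CPM in the cold libraries and 0, 51.1 and 0 in the warm ones (-2.68 ± 0.48, edgeR adjusted p = 0.00173), and Muc20 was at least 15.3-fold lower. Scnn1a (1.03 ± 0.22) and the potassium channel gene Kcnj10 (1.21 ± 0.29) rose. Aqp4 and Ptger1 were also higher in the selected barcodes than in Calb1-positive ones, as given above, and the larger share of Calb1-positive barcodes in the warm set moves with their fall. Its part in the result was not tested. Hemoglobin genes, from red blood cells, were lower, 4 of 4. Leaving out 1 library at a time gave 48 to 142 genes, the most without the warm library 3.

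**Figure D3:**
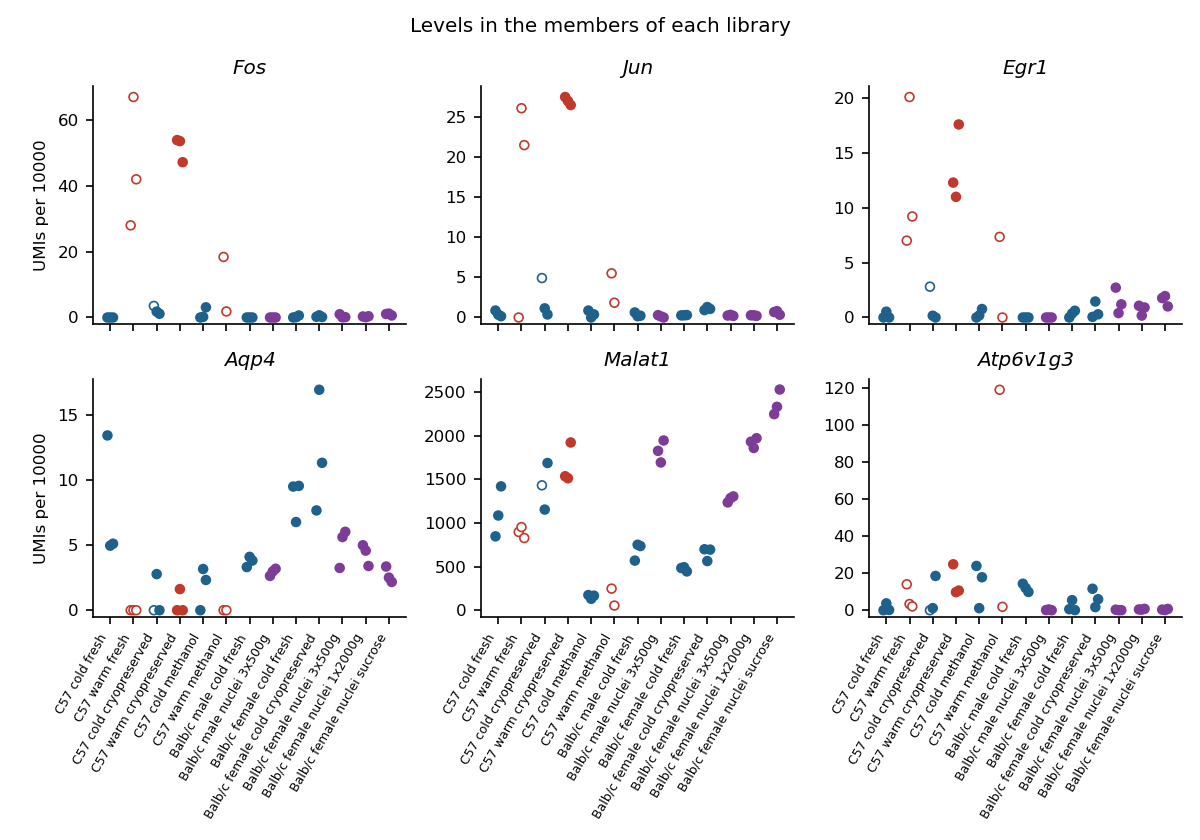
Level of Fos, Jun, Egr1, Aqp4, Malat1 and Atp6v1g3 in the selected barcodes of every library, in UMIs per 10000 non-mitochondrial UMIs. Blue marks cold cells, red warm cells and purple nuclei, and hollow points are libraries with fewer than 10 selected barcodes. Fos, Jun and Egr1 are high in the warm cryopreserved C57BL/6J libraries, and Malat1 is high in nuclei and low after methanol fixation.

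Methanol fixation of cold suspensions was accompanied by more proximal tubule and hemoglobin RNA in the selected barcodes and less RNA of several collecting duct genes. Against cold fresh libraries, 671 genes were tested, of which 81 were higher (12.1%) and 45 lower (6.71%). With DESeq2's size factor method (RLE) in edgeR the calls were 72 higher and 65 lower. The fresh and fixed aliquots came from the same suspensions, and with the suspension as a replicate block the fit called 190 genes, 107 higher and 83 lower. Without the fresh library 2 the fit called 62 genes, without the fresh library 3 64, and without the methanol libraries 2 or 3 64 and 63.

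Gpx3, a secreted peroxidase made by the proximal tubule, stood at 116, 127 and 133 per 10000 in the methanol libraries and 17.8, 27.2 and 41.4 in the fresh ones (log2 fold change 1.93 ± 0.30, edgeR adjusted p = 0.00109). Kap, the androgen-regulated proximal tubule gene, stood at 20.0, 67.9 and 76.1 against 6.94, 15.0 and 6.85 (2.34 ± 0.45). Of 12 proximal tubule genes tested, 11 rose, with a median of 1.71 against 0.05 for all genes. The count was 5 when proximal tubule-dominated barcodes were left out, and 6 without the methanol library 3. The summed level of the 20 proximal tubule genes was 230 to 350 per 10000 in the methanol-fixed selected barcodes and 40.3 to 91.1 in the fresh ones, and in the other barcodes of those libraries it was 733 to 823 and 551 to 650. All 3 hemoglobin genes tested rose, with a summed level of 102 to 274 against 35.1 to 41.6.

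Genes of neighbouring tubule cells rose with them. Klk1 stood at 3.47, 68.9 and 8.89 per 10000 in the methanol libraries and 0.868, 1.24 and 3.19 in the fresh ones (3.71 ± 0.87, edgeR adjusted p = 0.0129). S100g stood at 4.78, 37.2 and 17.4 against 1.30, 1.41 and 3.82 (2.97 ± 0.60). Atp6v1g3, a proton pump subunit gene of intercalated cells, stood at 23.9, 1.12 and 17.8 against 0, 3.71 and 0.159 (2.88 ± 0.94, edgeR adjusted p = 0.0487), with an overlap between the groups. The 3 methanol libraries differed from each other in which of these genes was high.

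Among collecting duct genes, none of those tested rose. Aqp4 stood at 0, 3.16 and 2.32 against 13.4, 4.95 and 5.10 per 10000 (-1.86 ± 0.57, edgeR adjusted p = 0.0353), and Gata3 at 0.869, 0.558 and 1.55 against 2.60, 2.83 and 3.35 (-1.88 ± 0.44). Ehf, another epithelial transcription factor gene, fell by 1.37 on the log2 scale. Of 15 epithelial genes tested, 3 fell, namely Cdh16 (-1.20 ± 0.22), Cldn8 (-0.87 ± 0.26) and Spint2 (-0.80 ± 0.24), and the count ran from 1 to 7 across the alternatives. None of 5 sodium, potassium channel and prostaglandin genes tested was called by edgeR, 2 had an unadjusted p under 0.05, and DESeq2 called none. Hsd11b2 stood at 18.2, 22.9 and 7.73 against 36.0, 36.2 and 18.3.

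The largest falls among abundant genes included Malat1, a nuclear noncoding RNA, at 174, 131 and 167 against 847, 1086 and 1420 per 10000 (-3.00 ± 0.39, edgeR adjusted p = 4.82e-04). Neat1, another nuclear noncoding RNA, fell by 1.89, the beta-actin gene Actb by 1.95 and S100a6 by 2.62 on the log2 scale. The 3 methanol values of Malat1 lay far below every fresh value. The other barcodes of the same libraries changed with fixation too, and the change differed between them and the selected barcodes for 11 of 10012 genes by an edgeR interaction term, 9 of them higher (0.0899%) and 2 lower (0.0200%). Atp6v1g3, Klk1 and S100g were among the 9, and S100a6 was lower. Klk1 and S100g also differed between the selected and the Calb1-positive barcodes, which the rule left out. The rule decided which barcodes entered each side, so these calls are not independent of it.

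After cryopreservation of cold C57BL/6J suspensions, the unpaired fit called no gene of the collecting duct lists. In 2 cryopreserved and 3 fresh libraries, 1105 genes were tested, of which 12 were higher (1.09%) and 16 lower (1.45%). None of 44 genes tested on the 6 collecting duct lists was called by edgeR, among them 5 water, 7 sodium, 9 transcription factor and 19 epithelial genes. Of these, 8 had an unadjusted p under 0.05, and DESeq2 called none. All 8 were lower after storage, among them Aqp4 (log2 fold change -1.95 ± 0.60), Tfcp2l1 (-1.26 ± 0.45) and Cldn8 (-0.78 ± 0.27). With the suspension as a replicate block the fit called 59 genes, 30 higher and 29 lower. Whether collecting duct genes were among them is not given here, so the lack of calls holds for the unpaired fit only.

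The lower genes were mostly those of other cells. All 8 proximal tubule genes tested fell, with a median of -4.44, or -3.24 with genes at 0 set to their bound, against -0.03 for all genes. The count was 4 without the fresh library 2 or 3. Without the cryopreserved library 2 it was 2, in a fit whose spread comes from the fresh libraries alone and assumes that the lone stored one varies like them. Miox, a proximal tubule oxygenase gene, was at 0 in the cryopreserved libraries and at least 9.78-fold lower. The hemoglobin gene Hba-a2 was at least 18.9-fold lower. The summed proximal tubule level in the selected barcodes was 3.74 to 5.65 per 10000 after cryopreservation and 40.3 to 91.1 in fresh libraries, and in the other barcodes it was 12.2 to 17.4 and 551 to 650. Higher genes included Tmem52b (3.33 ± 0.54) and S100g (3.22 ± 0.43), which also separated Calb1-positive barcodes from the selected ones, and Clu (2.74 ± 0.52).

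Storage for 2 weeks was also compared with fresh cells in female Balb/c mice. The study describes these as suspension aliquots too, but neither the labels nor the headers say which stored library belongs to which fresh one, so no pairing entered the fit. Of 3957 genes tested in 3 libraries a side, 17 were higher (0.430%) and 62 lower (1.57%). None of 66 genes tested on the 6 collecting duct lists was called by edgeR, among them 8 water, 11 sodium, 14 transcription factor and 21 epithelial genes. Of these, 5 had an unadjusted p under 0.05, and DESeq2 called none. All 15 proximal tubule genes tested fell, with a median of -3.47 against 0.01 for all genes. When proximal tubule-dominated barcodes were left out, 9 genes were higher and 12 lower, and 7 of the proximal tubule genes fell. Gpx3 stood at 3.16, 7.37 and 1.51 per 10000 after storage and 28.5, 30.8 and 18.7 before it. The summed proximal tubule level was 4.82 to 12.7 in the stored and 52.8 to 80.4 in the fresh selected barcodes, and 55.9 to 91.6 and 349 to 415 in the other barcodes.

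Aqp6, a water channel gene of intercalated cells, stood at 2.26, 2.02 and 2.68 per 10000 in the stored cells and at 0, 0.137 and 0 in the fresh ones (edgeR adjusted p = 1.57e-06). The fresh libraries held 3 Aqp6 UMIs, and the ratio of the summed levels was 44.3 (exact 95% counting interval 14.9 to 217). Slc4a1, their anion exchanger gene, rose by 2.93 ± 0.58. The summed level of the intercalated list was 11.1 to 29.6 in the stored and 5.61 to 15.5 in the fresh selected barcodes, and its part in the result was not tested. Jun stood at 0.926, 1.31 and 1.07 against 0.263, 0.274 and 0.307 (1.96 ± 0.33, edgeR adjusted p = 0.00174), as the 1 of 13 stress genes tested that rose. Klk1 (-2.98 ± 0.62) and S100g (-1.98 ± 0.45) fell here, whereas S100g rose in the C57BL/6J comparison. Whether the effects differ between the batches was not tested.

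In warm C57BL/6J suspensions, storage could be compared only in the wider set. Of 2694 genes tested, 126 were higher (4.68%) and 59 lower (2.19%) after cryopreservation. Of 17 stress genes 13 rose, with a median of 0.86 against -0.02 for all genes, and the count was 8 without the fresh library 1 or 2. Of 8 potassium channel genes 4 fell, and Hsd11b2 fell by 0.79 on the log2 scale. The endothelial genes Emcn, Plvap and Egfl7 rose, with Plvap at 120, 277 and 200 CPM against 10.8, 3.89 and 11.5. Calb1 was present in 89.3% of the fresh and 43.0% of the stored barcodes of the set, and the part of this shift in the result was not tested. This comparison shares its fresh libraries with the warm against cold comparison above.

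Nuclei and cells of the same strain and sex differed in most of the genes tested. In male Balb/c mice 1470 genes were tested, of which 655 were higher (44.6%) and 643 lower (43.7%) in nuclei. In females 5750 genes were tested, of which 2469 were higher (42.9%) and 2179 lower (37.9%). The nuclei were counted over introns and exons and the cells over exons alone, so reads from introns entered the nuclei counts only. The median over all genes was -0.01 in males, or 0.15 with RLE size factors, and 0.23 in females. Male and female comparisons differ in chemistry too.

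RNA of proximal tubule, intercalated and thick limb or distal cells moved with these comparisons. Of the proximal tubule list, 7 of 13 genes tested were higher and 2 lower in male nuclei, and 3 of 16 higher and 9 lower in female nuclei. Slc34a1, the phosphate transporter gene of the proximal tubule, rose by 3.55 ± 0.35 in males and was at 0.16 ± 0.24 in females. The summed level of the list was 74.6 to 128 per 10000 in male nuclei against 38.4 to 84.9 in male cells, and 25.0 to 31.9 against 52.8 to 80.4 in females. After thinning to 500 UMIs, at least 2 proximal tubule UMIs were present in 76.6% to 96.0% of selected male nuclei and 49.0% to 57.1% of selected male cells, and in 21.8% to 26.8% and 27.1% to 36.7% in females. At least 2 intercalated UMIs were present after thinning in 0.794% to 5.88% of male nuclei and 22.2% to 42.9% of male cells, and in 0 to 1.92% and 2.08% to 4.08% in females. Both intercalated genes tested in males fell, Atp6v1g3 (-5.47 ± 0.52) and Spink8 (-2.12 ± 0.38), as did 2 of 3 in females. At least 2 thick limb or distal UMIs were present in 17.6% to 41.3% of male nuclei and 9.52% to 17.3% of male cells, and in 22.3% to 27.9% and 8.16% to 12.5% in females. Of that list 2 of 6 genes tested were higher and 3 lower in male nuclei, and 2 of 8 higher and 3 lower in female nuclei. Over all genes 44.6% were higher and 43.7% lower in males, and 42.9% and 37.9% in females. Nothing particular to a list is read from the counts of genes in this paragraph. Among barcodes that met the positive part of the rule, Calb1 was present in 8.19% of male nuclei and 42.3% of male cells. In females it was present in 25.8% and 70.3%. The parts of other cells and of the Calb1 condition in the result were not tested.

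Nr3c2, the mineralocorticoid receptor gene, stood at 9.44, 11.4 and 9.09 per 10000 in male nuclei and 0.473, 0.491 and 0.672 in male cells (log2 fold change 4.63 ± 0.39, edgeR adjusted p = 1.91e-10). In females it stood at 23.2, 17.6 and 19.7 against 0.483, 0.731 and 0.538 (4.82 ± 0.24). Nedd4l, whose product marks the sodium channel for degradation, rose by 4.36 ± 0.42 in males and 4.26 ± 0.24 in females. Mecom, a transcription factor gene, rose by 3.62 ± 0.32 and 4.29 ± 0.21. Pde4d, which encodes a phosphodiesterase that degrades cAMP, rose by 6.37 ± 0.28 in females, and in males it went from 1 UMI in cells to 480 in nuclei. For Nr3c2 every nuclei library lay far above every cell library.

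Most genes of the epithelial list were lower in nuclei. Epcam, an epithelial adhesion gene, stood at 0.724, 0.855 and 0.894 per 10000 in female nuclei and 14.0, 13.9 and 12.4 in female cells (-4.28 ± 0.20, edgeR adjusted p = 2.87e-17), with -1.50 ± 0.34 in males. Cldn8 stood at 0.379, 0.755 and 0.531 against 8.34, 9.09 and 8.37 in females (-4.17 ± 0.23), with -2.90 ± 0.35 in males. Of the epithelial list, 1 of 21 genes tested was higher and 19 lower in female nuclei (median -3.25 against 0.23), and 2 of 17 were higher and 13 lower in male nuclei (median -1.40 against -0.01). The higher genes were Tjp1 in females (1.64 ± 0.36) and Cdh1 (0.83 ± 0.31) and Rhcg (0.68 ± 0.31) in males, and Rhcg was at -0.01 without the male fresh library 1. The male count of lower genes was 7 when at least 3 Aqp2 UMIs were required.

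Of the sodium genes, Hsd11b2 stood at 9.05, 8.95 and 5.23 in male nuclei against 29.8, 23.7 and 24.9 in male cells (-1.25 ± 0.30, edgeR adjusted p = 4.60e-04), and at 5.03, 5.13 and 4.25 against 39.1, 32.1 and 42.9 in females (-3.24 ± 0.18). Scnn1b stood at 9.13, 6.46 and 6.21 in female nuclei against 3.77, 2.56 and 3.69 in female cells (0.86 ± 0.20), and rose by 1.33 ± 0.32 in males. Scnn1a was 0.96 ± 0.21 lower in female nuclei on the log2 scale. In males its change of 0.21 ± 0.34 did not pass. Of the sodium list 4 of 8 genes tested were higher and 2 lower in males, and 5 of 14 higher and 6 lower in females. With 44.6% of all genes higher and 43.7% lower in males, and 42.9% and 37.9% in females, nothing particular to the list is read from these counts.

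Avpr2 stood at 4.18, 3.69 and 3.64 in male nuclei against 3.47, 2.95 and 3.14 in male cells (0.74 ± 0.31, edgeR adjusted p = 0.0274). In females it stood at 1.52, 1.89 and 1.29 against 4.04, 3.79 and 6.61 (-1.83 ± 0.22, edgeR adjusted p = 1.13e-08). Aqp4 was at 0.06 ± 0.32 in males (edgeR adjusted p = 0.859) and fell by 1.04 in female nuclei (edgeR adjusted p = 3.58e-05). The difference between the sexes was not tested. Of the water and vasopressin list, 3 of 7 tested were higher and 3 lower in males, and 6 of 12 higher and 5 lower in females. Of the transcription factors, 5 of 9 were higher and 1 lower in males, and 5 of 15 higher and 5 lower in females, with Pax2, Pax8 and Mecom among those higher in both. Over all genes 44.6% were higher and 43.7% lower in males, and 42.9% and 37.9% in females. Nothing particular to these 2 lists is read from their counts.

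The change followed the length of the gene on the genome. With the genes tested split into 4 equal bins by their span, from the shortest to the longest, the median log2 fold changes were -2.80, -1.69, 1.30 and 3.47 in males and -3.00, -0.67, 0.94 and 2.35 in females. In the bin of the longest genes 97.2% of male and 90.4% of female genes were higher in nuclei, against 6.96% and 3.65% in the shortest. Nr3c2 (chr8:76899442-77245012) spans 346 kb and Hsd11b2 (chr8:105518755-105523988) spans 5.23 kb on GRCm38. Spans were matched for 97.5% and 97.2% of the genes. The parts of intron counting and of gene length cannot be told apart.

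**Figure D4:**
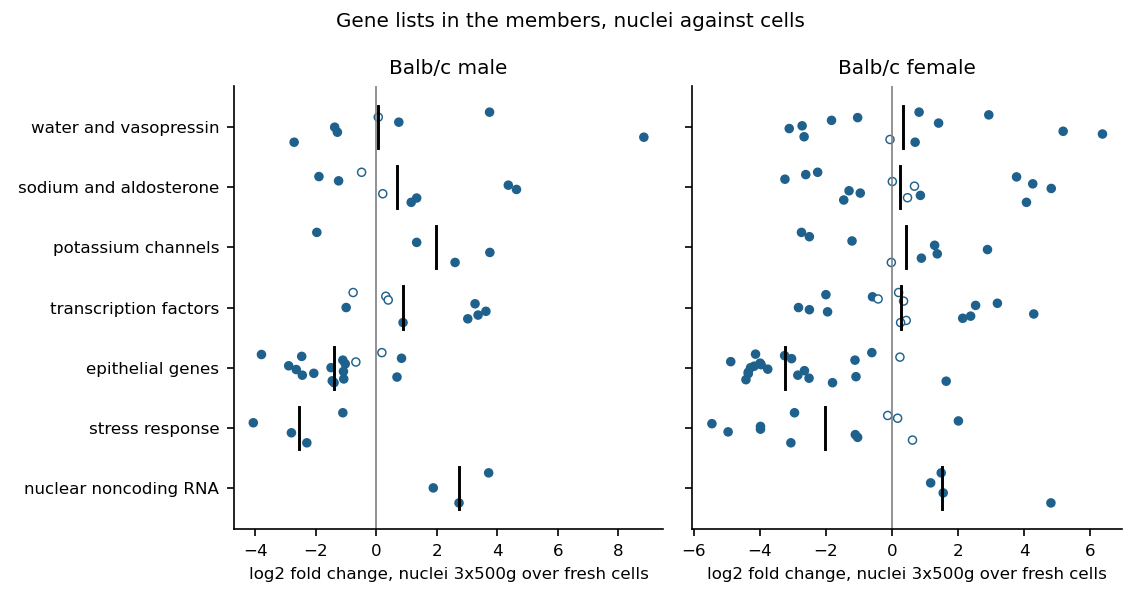
Log2 fold change of nuclei over cells in the selected barcodes for 7 gene lists, in male and female Balb/c mice. Each point is 1 gene, filled where edgeR called it, and black bars are list medians. The rightmost male point is Pde4d, with 1 UMI in the male cells, so its fitted position depends on the prior count. The epithelial genes lie mostly below 0, with medians of -1.40 and -3.25, and the nuclear noncoding RNAs lie above it.

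Among the nuclei protocols, the single wash at 2000 g gave more RNA of proximal tubule genes and of some epithelial genes in the selected nuclei than the 3 washes at 500 g. Of 7121 genes tested, 372 were higher (5.22%) and 61 lower (0.857%), and DESeq2 called fewer, as given in the last section. Kap stood at 20.8, 14.6 and 18.1 per 10000 against 1.69, 1.31 and 1.48 (log2 fold change 3.68 ± 0.17, edgeR adjusted p = 5.00e-09). Of 19 proximal tubule genes tested 8 rose and none fell, with a median of 0.92 against -0.03 for all genes. Their summed level in the selected nuclei was 53.2 to 75.3 against 25.0 to 31.9 per 10000. The rise was not particular to the selected nuclei. After thinning, at least 2 proximal tubule UMIs were present in 71.3% to 77.1% of them at 2000 g and 21.8% to 26.8% at 500 g. In nuclei with endothelial genes the shares were 84.4% to 91.5% and 42.0% to 48.0%.

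Of the collecting duct lists, 4 of 20 epithelial genes rose, among them Cldn8 (1.37 ± 0.22), Epcam (1.31 ± 0.18) and Cd9 (0.98 ± 0.18). Atp1b1, a subunit gene of the sodium pump, rose too (0.61 ± 0.13). None of 16 transcription factors, 9 potassium channel genes and 5 prostaglandin or endothelin genes was called by edgeR, 5 of these 30 genes had an unadjusted p under 0.05, and DESeq2 called 2. Malat1 stood at 1932, 1860 and 1972 against 1236, 1285 and 1305 (0.68 ± 0.07). Of 6 intercalated genes tested 3 rose, and none did when at least 3 Aqp2 UMIs were required. Without the 500 g library 3 the fit called 191 genes.

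Unsorted sucrose nuclei differed from the same 500 g nuclei by more genes. Of 6638 genes tested, 507 were higher (7.64%) and 336 lower (5.06%), against 129 higher and 224 lower with DESeq2. Of 12 stress genes tested 8 rose and none fell, with a median of 1.12 against -0.01. The count was 5 without the sucrose library 2 or the 500 g library 3. Btg2, an early response gene that restrains the cell cycle, stood at 6.98, 7.27 and 4.01 per 10000 against 2.07, 1.23 and 1.26 (2.17 ± 0.22, edgeR adjusted p = 5.50e-06). Fos stood at 1.06, 1.18 and 0.615 in the sucrose nuclei and 1.00, 0.0503 and 0.112 in the 500 g nuclei, with an overlap (1.62 ± 0.50, edgeR adjusted p = 0.0376), and Jun rose by 1.38 ± 0.35. These Fos levels lay far below the 47.2 to 53.9 of warm cryopreserved cells, which were counted on exons.

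Several genes that were high in nuclei were lower with sucrose. Mecom fell by 0.78, Nedd4l by 0.75 and Nr3c2 by 0.48 on the log2 scale, and Pax2 and Pax8 by 0.86 and 0.71. Aqp4 stood at 3.35, 2.50 and 2.17 against 3.24, 5.61 and 6.01 per 10000 (-0.74 ± 0.20, edgeR adjusted p = 0.0205). Hsd11b2 rose by 0.63 ± 0.17. Of 18 sodium genes 3 rose and 4 fell, and 2 fell in 3 of the alternatives. Of 18 proximal tubule genes tested 13 rose, or 8 without the sucrose library 1, and their summed level in the selected nuclei was 40.3 to 62.4. Of sucrose nuclei with endothelial genes, 52.5% to 62.3% held at least 2 proximal tubule UMIs after thinning, against 42.0% to 48.0% at 500 g. Cd74, a gene of antigen-presenting cells, rose by 3.10 ± 0.53. Without the sucrose library 2 the fit called 372 genes, without the sucrose library 1 548, and without the 500 g library 3 423. The 2000 g and sucrose comparisons share the 500 g libraries.

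Cold fresh cells of male C57BL/6J and male Balb/c mice, from different batches, differed in few genes. Of 1019 genes tested, 23 were higher (2.26%) and 24 lower (2.36%) in C57BL/6J, and DESeq2 called fewer, as given in the last section. Ly6e was 5.33 ± 0.36 higher on the log2 scale (edgeR adjusted p = 6.97e-08), and Apela 1.19 ± 0.26 higher. Klk1 stood at 0.868, 1.24 and 3.19 per 10000 in C57BL/6J and 12.0, 28.3 and 4.93 in Balb/c (-2.93 ± 0.54, edgeR adjusted p = 0.00328), and S100g, Tmem52b and Atp6v1g3 were lower too. These are genes of connecting tubule or intercalated cells. At least 2 intercalated UMIs were present after thinning in 0 to 10.0% of C57BL/6J and 22.2% to 42.9% of Balb/c selected cells. Calb1 was present in 61.9% and 42.3% of the barcodes that met the positive part of the rule. The part of other cells in these differences was not tested. None of 5 water, 6 sodium and 9 transcription factor genes was called by edgeR. With the potassium channel and prostaglandin lists these were 23 genes, of which 2 had an unadjusted p under 0.05 and DESeq2 called none. Without the C57BL/6J library 1 the fit called 28 genes, and without the Balb/c libraries 1 or 2 it called 30 and 27. The male Balb/c library 3 was shallow, with a median of 386 non-mitochondrial UMIs per selected cell, and 46 genes were called without it.

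The bulk libraries measured the same genes without any selection of barcodes. In bulk, fewer cells of a type and less RNA per cell cannot be told apart. Of 14096 genes tested between warm and cold C57BL/6J suspensions, 759 were higher (5.38%) and 460 lower (3.26%). Aqp2 stood at 170, 210 and 225 CPM in the warm and 96.9, 133 and 59.9 in the cold suspensions (log2 fold change 1.04 ± 0.20, edgeR adjusted p = 0.00645). Hsd11b2 stood at 247, 222 and 299 against 125, 129 and 64.6 CPM (1.24 ± 0.19), and Avpr2 at 34.0, 33.3 and 44.7 against 16.0, 17.9 and 11.0 (1.29 ± 0.16). All warm values of these 3 genes lay above all cold ones, whereas the share of selected barcodes in the fresh 10x libraries ran the opposite way.

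In the same bulk comparison, 19 of 23 epithelial, 9 of 18 sodium, 7 of 9 potassium channel and 12 of 17 transcription factor genes of the collecting duct rose and none fell. Of 16 intercalated genes 14 rose, and of 13 thick limb and distal genes 9 rose. Of 17 stress genes 15 rose. Aqp4 stood at 15.3, 20.4 and 25.9 CPM in the warm and 15.5, 21.4 and 11.1 in the cold suspensions, with overlapping values.

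Intact female Balb/c kidneys were compared with their cold suspensions. Of 16532 genes tested, 2005 were higher (12.1%) and 1305 lower (7.89%) in intact tissue. Aqp4 stood at 192, 153 and 201 CPM in intact kidneys and 56.5, 38.5 and 52.7 in suspensions (1.90 ± 0.15, edgeR adjusted p = 2.49e-05). Hsd11b2 ran the other way, at 252, 276 and 308 against 513, 421 and 410 (-0.68 ± 0.09, edgeR adjusted p = 8.25e-04), as did Scnn1b (-0.79 ± 0.12) and Gata3 (-0.63 ± 0.10). Of 18 sodium genes 4 fell and none rose, and of 17 transcription factors 6 fell and none rose.

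Of 8 genes of the response to high salt 5 rose, among them Akr1b3 (1.41 ± 0.24) and Nfat5 (0.40 ± 0.07). Of 8 urothelial genes 6 rose, with Upk3a at 3.44 ± 0.36. Immune genes (10 of 11) and hemoglobin genes (4 of 4) were lower in intact tissue. Aqp2 overlapped between the groups, at 396, 328 and 639 against 729, 399 and 580 CPM.

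**Figure D5:**
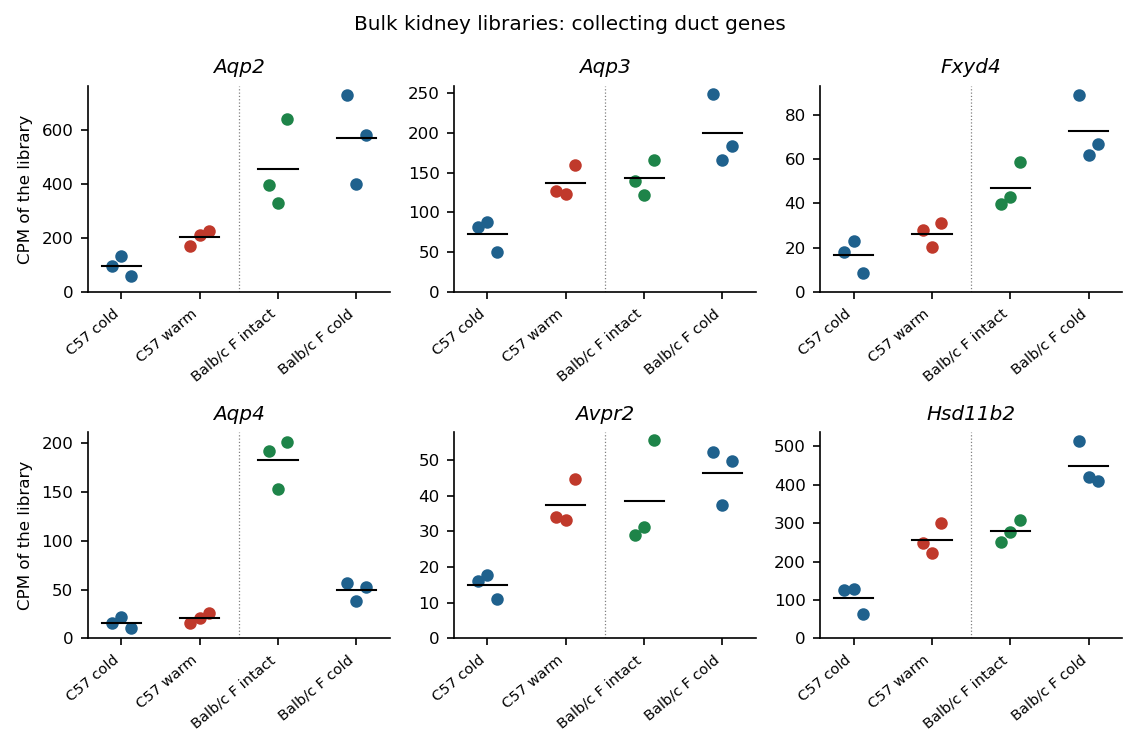
CPM of Aqp2, Aqp3, Fxyd4, Aqp4, Avpr2 and Hsd11b2 in bulk libraries of C57BL/6J cold and warm suspensions and of female Balb/c intact kidneys and cold suspensions. Points are libraries (blue for cold suspensions, red for warm, green for intact kidneys) and bars are means. In Balb/c, Aqp4 lies at 153 to 201 in intact kidneys and 38.5 to 56.5 in suspensions, and Hsd11b2 lies higher in the suspensions.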

How the data were processed

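The 39 10x libraries were deposited as UMI counts per gene and barcode. Per the study's methods, the authors aligned reads with Cell Ranger 2.1.1 to mm10, counting exons for cells and introns plus exons for nuclei. They removed empty droplets, barcodes with outlying gene numbers or high mitochondrial shares, and mitochondrial genes from nuclei. Nuclei alone also had to pass a minimum number of UMIs. The deposited tables of the male Balb/c cells list no mitochondrial gene either, and each fit used the genes listed in all its libraries. Nuclei were sorted or passed through sucrose to favour single nuclei. No computational doublet removal was done here, so barcodes that hold more than 1 cell or nucleus may remain. The 15 bulk libraries were deposited as read counts per gene, which the authors made with STAR 2.6.1a and featureCounts. Strand use is not given in the sources used here. A column of per-sample values that matched no library's labels (1) was not used.

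The members and gene lists were chosen with earlier results of these data known. UMIs of the selected barcodes were summed per library. Libraries with at least 10 selected barcodes were fitted per comparison with edgeR 4.0.16 (R 4.3.3), using TMM factors, filterByExpr and the quasi-likelihood test, with Benjamini-Hochberg adjustment over all genes tested and a threshold of 0.05. The 6 rule genes stayed in the fit and out of the counts of calls. The comparison of warm with cold fresh cells, the 2 comparisons of warm methanol-fixed cells and that of warm cryopreserved with fresh cells could not be fitted on the selected barcodes. Shares were compared by two-sided exact permutation tests. DESeq2 1.42.0, RLE factors, no filter, at least 3 Aqp2 UMIs, the rule without its negative genes, removal of proximal tubule-dominated barcodes, removal of barcodes selected in more than 1 library, thinning to 500 UMIs and leaving out each library were alternatives. A fold against a group at 0 was bounded with 3 UMIs over the group, and intervals cover counting error only. Each SE of a log2 fold change was calculated back from the test, as its absolute size over the square root of the quasi-likelihood F statistic. The scripts were tested on simulated data.

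Genes named were those of the 18 lists, and for each comparison up to 5 called genes per direction with the largest change among those with at least 50 CPM in either group. Levels are UMIs per 10000 non-mitochondrial UMIs. The column headers gave fresh, cryopreserved and methanol-fixed aliquots of a C57BL/6J suspension the same identifier, so these pair by mouse. The deviations of same-numbered libraries from their group means correlated at 0.11, -0.07 and 0.20 for methanol and at 0.01 and 0.05 for cold cryopreservation. The deviations of the 2 cold cryopreserved libraries are mirror images of each other, so the last 2 values cannot show whether pairing matters. Libraries of a group came from different mice. Leaving out 1 of the 2 cold cryopreserved libraries leaves a lone one, assumed to vary like the other group. Gene spans were taken from GENCODE vM21 and promoter sequence from RefSeq.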

Additional observations from a re-analysis of the deposited data

Results flagged for a closer look

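The change on methanol fixation was compared between the selected barcodes and the other barcodes of the same cold libraries with an interaction term in edgeR. The change differed for 11 genes of 10012 tested, 9 higher (0.0899%) and 2 lower (0.0200%) in the selected barcodes. The differences in log2 fold change were 3.04 for Atp6v1g3, 2.62 for Klk1, 2.58 for S100g, 1.94 for Ttc36, 1.68 for Spink1 and 1.65 for Kap, and -2.31 for Akr1b3 and -2.79 for S100a6. The rule decided which barcodes entered each side, so these calls are not independent of it. Fitted values of 10.54 for Egf and 10.42 for Ggt1 depend on the prior count and are no measure of size. The count was 40 with RLE factors, 5 to 7 without any single cold fresh library and 6 without the methanol library 3.

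In the wider set of Aqp2-positive barcodes, the warm against cold difference was compared between cryopreserved and fresh suspensions. It differed for 14 of 2635 genes, 9 higher (0.342%) and 5 lower (0.190%) in the cryopreserved suspensions. The warm excess of Fos (-7.99), Fosb (-5.91) and Jun (-3.43) was smaller after cryopreservation, although Fos and Fosb were at 0 in the cold fresh libraries, so those fitted values depend on the prior count. Tmem52b (-1.15) and Pgam2 (-1.25) were also lower, and Plvap (5.68), S100a6 (5.41), Umod (4.01) and Id1 (3.94) were higher. Muc20 (10.08) was at 0 in the warm fresh libraries, and its value also depends on the prior count. Calb1 was present in 89.3% of warm and 61.9% of cold fresh barcodes of this set, and in 43.0% of warm and 62.7% of cold cryopreserved ones, so its difference ran in opposite directions, and the part of this in the result was not tested. The count was 3 without the cold cryopreserved library 2, 7 without the cold fresh library 1, 8 without the cold fresh library 3 or the warm fresh library 2, and 9 without the warm cryopreserved library 3.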

How the results depend on the processing

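Of 172 recomputed counts of called genes 49 moved by more than 1.5 times, of 117 shares 14 moved by more than the spread, and of 8975 values of named genes 5 reversed and 1003 lost their call. With DESeq2 the counts were 43 (warm fresh, wider set), 37 (warm cryopreserved), 73 (methanol), 109 (cryopreserved warm, wider set), 48 (cryopreserved Balb/c), 205 (2000 g), 353 (sucrose), 22 (C57BL/6J against Balb/c) and 6 (interaction). Without a filter they were 134, 64 (methanol), 328, 179, 3664 (male nuclei), 682 and 1906 (bulk warm). With at least 3 Aqp2 UMIs they were 68 (methanol), 802 (male nuclei) and 525 (sucrose). Without proximal tubule-dominated barcodes they were 67 (methanol) and 21 (cryopreserved Balb/c). RLE factors gave 40 for methanol between barcode sets.

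The replicate block, chosen after seeing the data for methanol (190), cold cryopreserved (59) and warm cryopreserved (80), gave 103, 182 and 17 in the wider set for warm fresh, cryopreserved warm and the interaction. Warm and cold libraries share only a number.

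Leaving out 1 library gave 48 to 142 genes (warm fresh), 48 to 81 (warm cryopreserved), 62 to 104 (methanol), 19 to 36 (cryopreserved cold), 120 to 197 (cryopreserved warm), 55 to 102 (cryopreserved Balb/c), 1421 to 1697 and 4702 to 5066 (male and female nuclei), 191 to 417 (2000 g), 372 to 816 (sucrose), 27 to 46 (strain), 3 to 16 (interaction), 5 to 14 (methanol between barcode sets), and 771 to 920 and 2383 to 3082 (bulk warm and intact). The differences in share, in percentage points, were -0.637 to -0.397 (warm fresh), -0.548 to -0.363 (warm methanol), 0.262 to 3.95 (warm cryopreserved), -0.212 to 0.0293 and -0.0416 to 0.0273 (methanol, cold and warm), 0.522 to 1.09, 1.65 to 5.34 and 3.73 to 4.90 (cryopreserved cold, warm and Balb/c), -1.85 to -1.42 and -0.261 to 0.248 (male and female nuclei), 0.549 to 0.862 (2000 g), 0.248 to 0.635 (sucrose) and -2.37 to -2.13 (strain).

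Without the negative genes the differences in share were -0.952 (warm fresh), -0.934 (warm methanol), -0.314 (methanol, warm), 2.18 (cryopreserved cold), 6.22 (cryopreserved Balb/c), -3.58 and -1.99 (male and female nuclei) and -3.44 (strain). After thinning they were -0.117 (methanol, warm), -3.43, -1.96, 0.178 (2000 g) and -3.15, and with at least 3 Aqp2 UMIs -1.90 (strain). The thinned differences that involve nuclei (-3.43, -1.96 and 0.178) cannot tell abundance from Aqp2 level, because the rule kept its minimum Aqp2 count. In male nuclei, leaving out 1 library gave -0.13 to 0.96 for Miox and -0.01 to 0.75 for Rhcg, both reversed without the male fresh library 1, and with at least 3 Aqp2 UMIs Klk1 (0.01, male nuclei), Keg1 (-0.01, female nuclei) and Emcn (-0.01, sucrose nuclei) reversed. The cause was not tested. Apart from the warm cryopreserved library 1, the C57BL/6J libraries fitted held 10 to 37 selected cells, which limits the precision of their levels.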
